A study of Mus musculus with 4 samples.

Results

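The genes described here are 9 genes of RNA sensing and of the interferon response, out of 24116 genes counted in embryonic stem cells (ESCs). They are Ddx58, Ifih1, Mavs, Tbk1, Irf3, Irf9, Stat2, Isg15 and Bst2, chosen by name and matched to the count table by NCBI gene identifier. All 9 were found, and 8 passed the filter on low counts. Wild type (WT) ESCs were compared with third-generation telomerase RNA knockout (G3 Terc-/-) ESCs, in 2 libraries of poly(A) RNA per genotype. Both lines had the strain label C57BL/6, were grown on feeder cells with serum and leukemia inhibitory factor, and received no treatment. The G3 Terc-/- ESCs came from blastocysts of intercrossed G2 Terc-/- mice. Each genotype was a single line, named N12 for WT and F35 for G3 Terc-/-, so that genotype and line cannot be told apart. The titles of the WT samples also carry the prefix G3.

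Cells detect RNA of viral form in the cytosol with the helicases RIG-I (encoded by Ddx58) and MDA5 (Ifih1). Both signal through the mitochondrial adaptor MAVS to the kinase TBK1, which phosphorylates the transcription factor IRF3 to switch on type I interferon. Secreted interferon binds its receptor, and STAT2 and IRF9 then act in the transcription factor complex ISGF3, which drives interferon-stimulated genes such as Isg15, a ubiquitin-like modifier, and Bst2, which encodes tetherin, a protein that holds budding virus at the cell surface. Mouse ESCs are known for a weak interferon response compared with differentiated cells. Transcripts of retrotransposons can form double-stranded RNA, which the same sensors can bind.

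Gene counts summed to between 18047995 and 22520017 per library. For Terc, the deleted gene, WT replicates 1 and 2 gave 7 and 2 counts and each G3 Terc-/- replicate gave 0, which allows up to 3 counts. All 10 ESC markers passed the low-count filter, and their summed level was 6049 and 6152 CPM (counts relative to library size, scaled by TMM factors as throughout) in WT and 7334 and 7649 CPM in G3 Terc-/- libraries. The markers did not move as one. By edgeR adjusted p, 8 were higher and 2 lower in G3 Terc-/- ESCs (100% called, against 43.5% of all genes). The log2 fold change was 1.13 for Nanog, and -0.79 and -0.32 for Dppa5a and Utf1, which fell. The 15 markers of feeder fibroblasts summed to 314.8 and 202.1 CPM in WT and to 350.1 and 236.5 CPM in G3 Terc-/- libraries, higher in replicate 1 of each genotype. The 5 immune cell markers summed to 9.88 to 12.6 CPM, of which Cd68 gave 8.33 to 9.97 CPM. Ptprc, the pan-leukocyte gene among them, had 2 to 5 counts per library. Cd3e rose from a mean of 0.774 CPM in the WT line to 2.01 CPM in the knockout (log2 fold change 1.37, edgeR adjusted p = 0.00104). The other 2 immune markers tested did not pass. The labels give no separate cultures for the replicates, so p-values measure the spread between these libraries. With 2 libraries against 2, an exact permutation test of a single value cannot give a two-sided p below 0.333.

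ISGF3 binds the interferon-stimulated response element (ISRE), and its core, GAAA followed by any 2 bases and GAAA again, was searched on both strands of the RefSeq promoters (GRCm38.p6, 250 bases before to 50 bases after the start). All 9 members had a promoter in that table, and 5 of them held this core, against 3.99% of all 27025 genes with a promoter. The promoters of Mavs, Tbk1, Irf3 and Irf9 had no match in this window. The matching stretches are shown because these 5 genes carry the same letters and did not change alike. They run 5′ to 3′ on the strand of the gene, with the core or overlapping cores in capitals.
Isg15, chr4:156200835-156200936, minus strand, 3 overlapping cores from -78 to -57: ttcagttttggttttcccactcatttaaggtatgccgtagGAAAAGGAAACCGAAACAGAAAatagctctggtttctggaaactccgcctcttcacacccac
Bst2, chr8:71537547-71537642, minus strand, 2 overlapping cores from -130 to -115: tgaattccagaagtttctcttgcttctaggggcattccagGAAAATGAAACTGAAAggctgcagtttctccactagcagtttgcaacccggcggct
Stat2, chr10:128270248-128270325, plus strand, 1 core on the reverse strand from -222 to -213: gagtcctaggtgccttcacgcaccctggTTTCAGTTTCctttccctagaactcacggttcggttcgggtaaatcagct
Ddx58, chr4:40239806-40239863, minus strand, 1 core on the reverse strand from 3 to 12: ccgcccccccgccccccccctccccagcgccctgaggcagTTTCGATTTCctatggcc
Ifih1, chr2:62646206-62646235, minus strand, 1 core from 33 to 42: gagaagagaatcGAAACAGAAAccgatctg
Positions count from the RefSeq start site. For Bst2, Stat2 and Tbk1 the first bases after that site were not found in a GENCODE transcript of the gene, so their start sites are less certain. With adjusted p-values under 0.05 as the threshold, of these genes Ddx58 rose, Bst2 fell, Stat2 and Isg15 did not pass, and Ifih1 had too few counts to be tested.

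In G3 Terc-/- ESCs, Ddx58, Mavs and Irf9 were higher and Bst2 was lower than in WT ESCs, and Tbk1, Irf3, Stat2 and Isg15 did not pass the test. The changes were small, with 1.26-fold, 1.28-fold and 1.28-fold for the first 3 and 0.560-fold for Bst2. Thus 4 of the 8 members tested were called, against 43.5% of all 14896 genes tested, a share near the background. By direction, 3 of 8 were higher (21.7% of all genes) and 1 of 8 was lower (21.8% of all genes). The ranges of the genotypes did not overlap for 6 of the 8, as for 70.4% of all genes tested. The median log2 fold change was 0.05 over the 8 members and 0.00625 over all genes tested. At the study's cutoffs, a fold change over 2 and an unadjusted p under 0.05, edgeR called 0 members, against 7.85% of all genes (4.73% higher and 3.13% lower). At an unadjusted p under 0.05 and any size it called 3 members higher and 1 lower. Of all 14896 genes it called 3729 higher and 3696 lower by that rule. DESeq2 called 2 members higher and 1 lower by adjusted p, and 1919 higher and 2255 lower of the 15353 genes it tested.

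**Figure D1:**
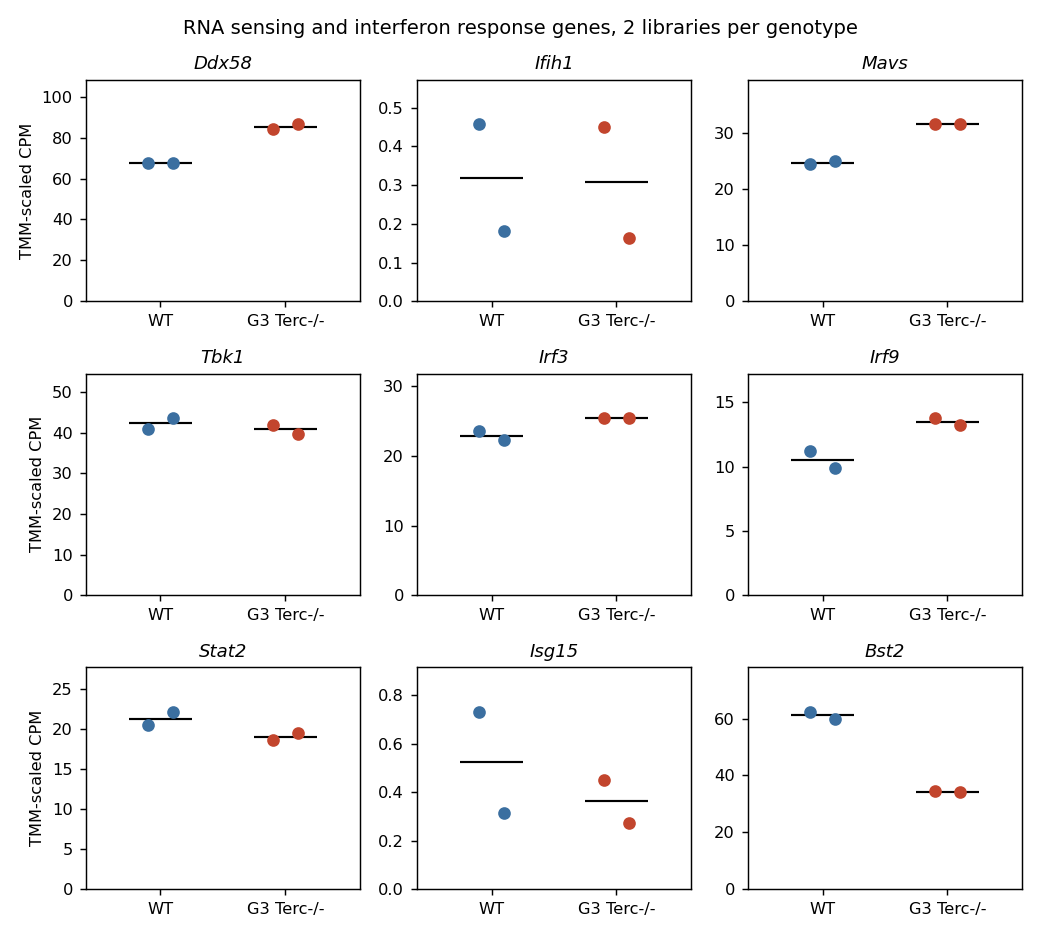
Level of each of the 9 members in CPM scaled by TMM factors, by library, in WT (blue) and G3 Terc-/- (red) ESCs, with the mean of the 2 libraries as a bar. Bst2 lay near 61.2 CPM in WT and 34.3 CPM in G3 Terc-/- ESCs, and Ifih1 and Isg15 were below 1 CPM in every library.

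Levels were compared between members per kilobase of exon. In WT ESCs Bst2 was the most abundant member at 67.8 CPM per kb, above 96.8% of the 21170 genes with an exon length. Tbk1 followed at 10.8, Ddx58 at 9.60, Mavs at 7.41, Irf3 at 6.66, Stat2 at 3.60 and Irf9 at 1.96 CPM per kb. Isg15 was at 0.693 and Ifih1 at 0.0391 CPM per kb, the latter above 27.4% of all genes, many of which had no counts. In WT ESCs no neighbours in this order overlapped between libraries. In G3 Terc-/- ESCs the order was the same except that Ddx58, at 12.1, stood above Tbk1, at 10.4 CPM per kb. The exon lengths unite all annotated transcripts, 8165 bases for Ifih1 and 903 bases for Bst2, and the length that was transcribed in these cells was not measured.

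**Figure D2:**
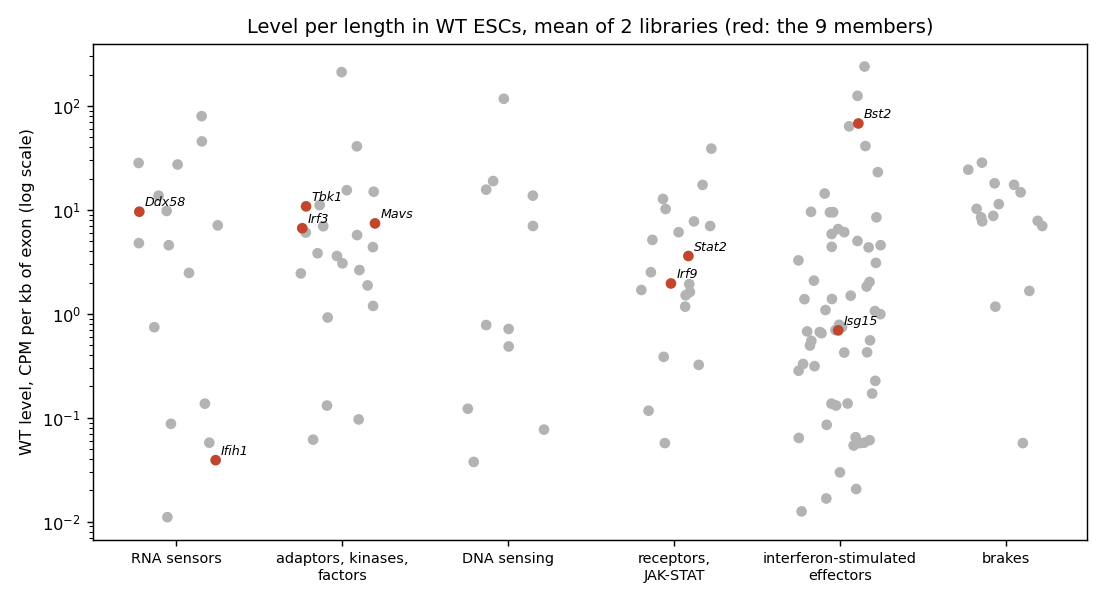
Level per kilobase of exon in WT ESCs (mean of 2 libraries, log scale) of the genes in 6 of the 7 pathway lists, with the 9 members in red. The interferon ligands are not drawn because 18 of 19 had 0 counts, and Ifih1, at 0.0391 CPM per kb, lies far below Ddx58, at 9.60.

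Ddx58 (gene 230073, chr4:40203777-40239825), which encodes the sensor RIG-I, had 1479 and 1501 counts in WT and 1868 and 1581 counts in G3 Terc-/- libraries. Scaled to depth, these were 67.7 and 67.7 CPM in WT and 84.2 and 86.7 CPM in G3 Terc-/- ESCs, so that both knockout libraries lay above both WT libraries. The log2 fold change of Ddx58 was 0.33 (standard error 0.06, 95% interval 0.21 to 0.46, edgeR adjusted p = 2.06e-05). Ifih1 (gene 71586, chr2:62595618-62646255), which encodes the sensor MDA5, had 10 and 4 counts in WT and 10 and 3 counts in G3 Terc-/- libraries. That is 0.458 and 0.180 CPM in WT and 0.451 and 0.164 CPM in G3 Terc-/- ESCs, with the genotypes overlapping in full. Ifih1 did not pass the filter. Without a filter its log2 fold change was -0.00905.

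Among the 17 genes listed as RNA sensors and their cofactors, 14 were tested, of which 2 rose and 4 fell (14.3% and 28.6%, against 21.7% and 21.8% of all genes), with a median log2 fold change of -0.08. Zc3hav1, which encodes the antiviral zinc finger protein ZAP, had 648 and 664 counts in WT and 1799 and 1458 counts in G3 Terc-/- libraries. It rose by 1.43 on the log2 scale (standard error 0.07, edgeR adjusted p = 7.26e-21), the largest rise of the 123 pathway genes tested. Zc3hav1 lies on chromosome 6 (chr6:38305286-38355352), and its call was the same when genes of that chromosome were left out of the scaling. Prkra, which encodes PACT, an activator of the kinase PKR, fell by 0.63 (edgeR adjusted p = 3.67e-05), and Lrrfip1 fell by 0.37 (edgeR adjusted p = 2.69e-05). Pqbp1 fell by 0.20 (edgeR adjusted p = 0.0230), a call that was lost without WT replicate 1 (0.134), WT replicate 2 (0.0946) or G3 Terc-/- replicate 1 (0.298). The fourth that fell, Ddx60, named after its values were seen, had 11 and 11 counts in WT and 1 and 2 counts in G3 Terc-/- libraries. It passed the filter only through its WT counts, so that a gene kept in this way had to differ, and its call adds no support to the counts of sensors, or of the effectors below, that fell. Dhx58, which encodes LGP2, the third RIG-I-like receptor, had a log2 fold change of -0.07 (edgeR adjusted p = 0.846) on 43 to 55 counts, and 0.17 without G3 Terc-/- replicate 1. Eif2ak2, which encodes PKR itself, had -0.10 (edgeR adjusted p = 0.371). Without G3 Terc-/- replicate 1, 2 sensors in place of 4 were lower.

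Mavs (gene 228607, chr2:131234063-131248025), the adaptor that both helicases share, had 535 and 556 counts in WT and 702 and 578 counts in G3 Terc-/- libraries. At equal depth this was 24.5 and 25.1 CPM in WT and 31.7 and 31.7 CPM in G3 Terc-/- ESCs, with no overlap. The log2 fold change of Mavs was 0.35 (standard error 0.08, 95% interval 0.19 to 0.52, edgeR adjusted p = 0.000409), close to that of Ddx58. Tbk1 (gene 56480, chr10:121546455-121586794), the kinase below MAVS, had 893 and 968 counts in WT and 928 and 726 counts in G3 Terc-/- libraries. Its levels were 40.9 and 43.7 CPM in WT and 41.9 and 39.8 CPM in G3 Terc-/- ESCs, which overlap. The log2 fold change of Tbk1 was -0.05 (95% interval -0.20 to 0.10, edgeR adjusted p = 0.617), an interval that ends below the fitted rise of Ddx58 and of Mavs. Irf3 (gene 54131, chr7:44997648-45002848), the target of TBK1, had 514 and 495 counts in WT and 564 and 465 counts in G3 Terc-/- libraries. Both G3 Terc-/- libraries, at 25.4 and 25.5 CPM, lay above the WT libraries, at 23.5 and 22.3 CPM. The difference in Irf3 did not pass the test (log2 fold change 0.15, 95% interval -0.02 to 0.32, edgeR adjusted p = 0.156). In GENCODE M21 Irf3 overlaps Bcl2l12 on the opposite strand, and the strand setting of the counting is not given in the sources used here.

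Of the 23 adaptors, kinases and transcription factors listed for this step, 22 were tested, of which 7 rose and 5 fell (31.8% and 22.7%, against 21.7% and 21.8% of all genes). Nlrc5, among the 7, was kept by the filter through its G3 Terc-/- counts, so its call adds no support to this number. Nlrx1, a mitochondrial protein known as a brake on MAVS, rose by 0.96 on the log2 scale (118 and 115 counts in WT, 245 and 173 in G3 Terc-/- libraries, edgeR adjusted p = 8.63e-07). Nfkb1, a subunit of NF-kB, rose by 0.40 (edgeR adjusted p = 5.57e-07), and Ikbkb, the kinase that releases NF-kB, also rose by 0.40 (edgeR adjusted p = 0.000110). Myd88, the adaptor of Toll-like receptors, fell by 0.62 (edgeR adjusted p = 0.000438), and it overlaps Slc22a14 on the same and Acaa1a on the opposite strand. Traf2 fell by 0.29 (edgeR adjusted p = 0.0297), a call lost without WT replicate 1 (0.271) or G3 Terc-/- replicate 2 (0.195). Irf7, the factor that amplifies interferon production, had 9 and 7 counts in WT and 15 and 7 counts in G3 Terc-/- libraries and was not tested. The number of adaptors that fell was 2 without WT replicate 1 and 3 without G3 Terc-/- replicate 2, and DESeq2 called 4 higher and 3 lower.

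**Figure D3:**
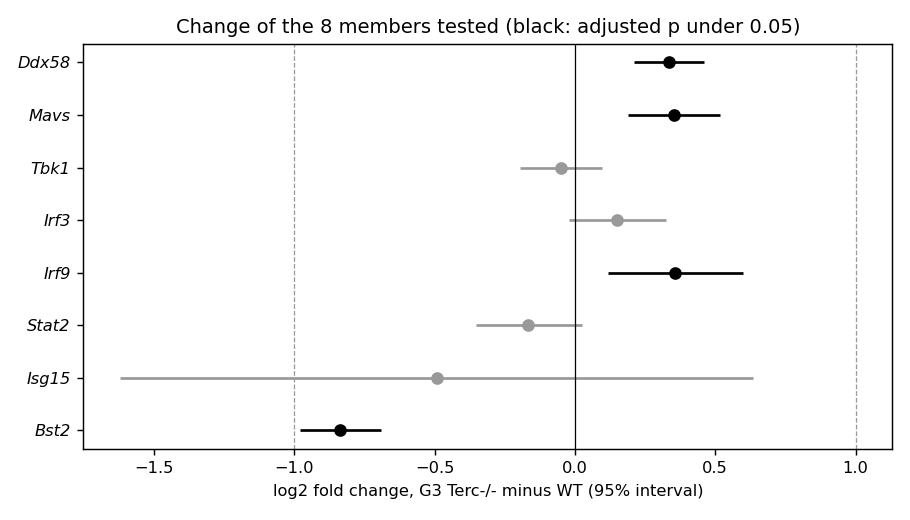
Log2 fold change (G3 Terc-/- minus WT) of the 8 members tested, as a point with its 95% interval from edgeR, black where the adjusted p was under 0.05, with dashed lines at a fold change of 2. Ddx58, Mavs and Irf9 lie between 0.33 and 0.36, Bst2 lies at -0.84, and the interval of Isg15, from -1.62 to 0.63, is the widest.

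Interferon transcripts themselves were at the floor. Of 19 interferon genes listed, comprising Ifnb1, the type I interferon that is induced first, together with the alpha genes, Ifne, Ifnk, Ifnz, Ifnl2, Ifnl3 and Ifng, 18 had 0 counts in all 4 libraries. Ifng had 1 count, in WT replicate 2. A count of 0 allows up to 3 counts per library, or 0.135 to 0.164 CPM, a limit that covers counting error only. No difference between the genotypes was detectable at this depth. The alpha genes are near-identical copies, so that reads they share could have been left out of the counts.

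Irf9 and Stat2 encode members of ISGF3. Irf9 (gene 16391, chr14:55603985-55610030) had 245 and 219 counts in WT and 306 and 241 counts in G3 Terc-/- libraries. Its levels were 11.2 and 9.88 CPM in WT and 13.8 and 13.2 CPM in G3 Terc-/- ESCs, which do not overlap. Irf9 rose by 0.36 on the log2 scale (standard error 0.12, 95% interval 0.12 to 0.60, edgeR adjusted p = 0.0132). This call was lost without WT replicate 2 (0.187) or G3 Terc-/- replicate 1 (0.0624), and with DESeq2 (0.152), so that it was the least firm of the 4 calls. In the same annotation Irf9 overlaps Rnf31 on the same strand, and Rnf31 had 917 and 960 counts in WT and 922 and 694 counts in G3 Terc-/- libraries. Stat2 (gene 20847, chr10:128270498-128292853) had 447 and 492 counts in WT and 412 and 356 counts in G3 Terc-/- libraries. At 20.5 and 22.2 CPM in WT and 18.6 and 19.5 CPM in G3 Terc-/- ESCs, Stat2 was lower in both knockout libraries. It did not pass the test (log2 fold change -0.17, 95% interval -0.35 to 0.02, edgeR adjusted p = 0.154).

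Of 20 genes of interferon receptors and JAK-STAT signalling, 19 were tested, of which 4 rose and 3 fell (21.1% and 15.8%, against 21.7% and 21.8% of all genes), with a median log2 fold change of -0.06. Ifnar2, a chain of the type I interferon receptor, rose by 0.69 (185 and 183 counts in WT, 282 and 262 in G3 Terc-/- libraries, edgeR adjusted p = 1.54e-05), and it overlaps the gene Gm21970 on the same strand. The other chain, Ifnar1, had a log2 fold change of -0.06 (edgeR adjusted p = 0.509). Irf1, a factor induced by interferon and by NF-kB, fell by 0.75 (672 and 682 counts in WT, 419 and 321 in G3 Terc-/- libraries, edgeR adjusted p = 1.40e-09), and it overlaps Gm17334 on the opposite strand. Socs3, a feedback inhibitor of JAK-STAT signalling that leukemia inhibitory factor also induces, fell by 0.39 (edgeR adjusted p = 5.99e-07). Tyk2, the kinase bound to IFNAR1, fell by 0.27 (edgeR adjusted p = 0.00307), a call lost without WT replicate 1 (0.0743). Usp18, which is induced by interferon and removes ISG15 from proteins, had 3 to 10 counts per library and was not tested. Without G3 Terc-/- replicate 1, 2 genes of this list in place of 4 were higher, and DESeq2 also called 2.

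Bst2 (gene 69550, chr8:71534255-71537472) had 1365 and 1329 counts in WT and 764 and 623 counts in G3 Terc-/- libraries. Its levels were 62.5 and 59.9 CPM in WT and 34.5 and 34.2 CPM in G3 Terc-/- ESCs, so that the genotypes were far apart and the replicates close. The log2 fold change of Bst2 was -0.84 (standard error 0.07, 95% interval -0.98 to -0.69, edgeR adjusted p = 3.62e-13). With each library left out in turn its log2 fold change stayed between -0.87 and -0.81. Isg15 (gene 100038882, chr4:156199424-156200818) had 16 and 7 counts in WT and 10 and 5 counts in G3 Terc-/- libraries. These are 0.733 and 0.316 CPM in WT and 0.451 and 0.274 CPM in G3 Terc-/- ESCs, which overlap. Its log2 fold change of -0.49 did not pass the test (standard error 0.56, edgeR adjusted p = 0.502) and was 0.23 without WT replicate 1. The promoters of both genes hold overlapping ISRE cores, and in WT ESCs Bst2 was at 67.8 and Isg15 at 0.693 CPM per kb.

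For Ifih1 and Isg15, the 2 members with the fewest counts, the libraries differed by replicate more than by genotype. These 2 genes had 3 to 16 counts per library, so that counting error is large in their ratios. Replicate 1 was higher in both genotypes for 4 of the 9 members, against 25.2% of the 19448 genes with any count. Ifih1 was 2.54 times higher in replicate 1 than in replicate 2 of WT, and 2.74 times in G3 Terc-/- ESCs. Isg15 was 2.32 and 1.65 times higher, respectively. The summed feeder markers moved the same way, at 1.56 times in WT and 1.48 times in G3 Terc-/- ESCs, and 14 of the 15 were higher in replicate 1 of both genotypes, as were 25.2% of the 19448 genes with any count. For the other 7 members the ratio lay between 0.922 and 1.14 in each genotype. The part of feeder RNA in the counts of Ifih1 and Isg15 was not tested, and in these bulk libraries more cells of a type and more RNA per cell cannot be told apart.

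**Figure D4:**
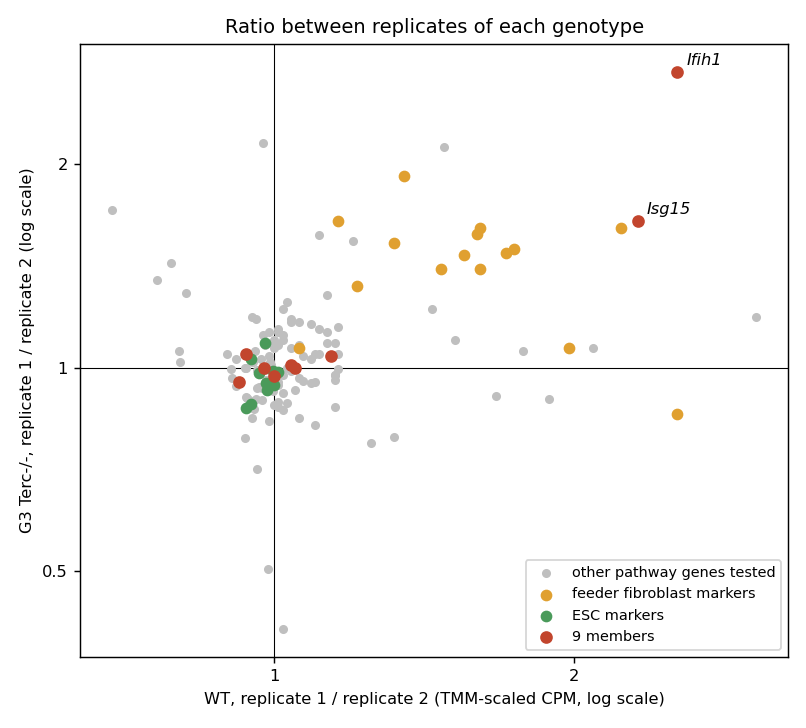
Ratio of replicate 1 to replicate 2 in WT (x axis) and in G3 Terc-/- ESCs (y axis), both on log scales, for the 9 members, feeder markers, ESC markers and the other pathway genes tested, where all 4 counts were above 0. Ifih1 and Isg15, on 3 to 16 counts per library, lie at the upper right with most feeder markers, and the other 7 members lie near 1 with the ESC markers.

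Interferon-stimulated effectors went both ways. Of 62 genes listed, 49 were tested, of which 16 rose (32.7%), 12 fell (24.5%) and 21 did not pass the test, against 21.7% and 21.8% of all genes, and the median log2 fold change was 0.14. Lgals9, which encodes galectin-9, fell by 1.71 (691 and 660 counts in WT, 204 and 174 in G3 Terc-/- libraries, edgeR adjusted p = 2.86e-18). Ube2l6, the conjugating enzyme that carries ISG15, fell by 0.94 (86 and 92 counts in WT, 43 and 42 in G3 Terc-/- libraries, edgeR adjusted p = 0.000740). Plscr1, a phospholipid scramblase, rose by 0.90 (367 and 341 counts in WT, 650 and 563 in G3 Terc-/- libraries, edgeR adjusted p = 3.33e-11). Phf11d rose by 0.89 (381 and 482 counts in WT, 830 and 645 in G3 Terc-/- libraries, edgeR adjusted p = 2.93e-11). Zc3hav1, described above, belongs to this list too. The 13 effectors that were not tested had at most a mean of 7.75 counts and, named after their values were seen, included Ifit1, Ifit3, Mx1, Mx2 and Rtp4, which interferon induces strongly in other cells. They also included Sp110, with 2 and 3 counts in WT and 15 and 7 counts in G3 Terc-/- libraries. Without a filter Sp110 passed (log2 fold change 2.18, edgeR adjusted p = 0.0242), and with DESeq2 it did not (adjusted p = 0.158). Of 14 feeder markers tested, edgeR called 6 higher and 0 lower in G3 Terc-/- ESCs (7 and 0 at an unadjusted p under 0.05), with a median log2 fold change of 0.35. Among the 6, Dcn was kept by the filter through its G3 Terc-/- counts, so its call adds no support. The ranges of Col3a1 and Col6a3, also among the 6, overlapped between genotypes. The summed markers overlapped as well, at 314.8 and 202.1 CPM in WT and 350.1 and 236.5 CPM in G3 Terc-/- libraries. DESeq2 called 0 of the feeder markers, and the part of feeder RNA in the effectors that rose was not tested. The number that rose was 10 without WT replicate 2 and the number that fell was 7 without G3 Terc-/- replicate 1, and DESeq2 called 7 and 7.

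**Figure D5:**
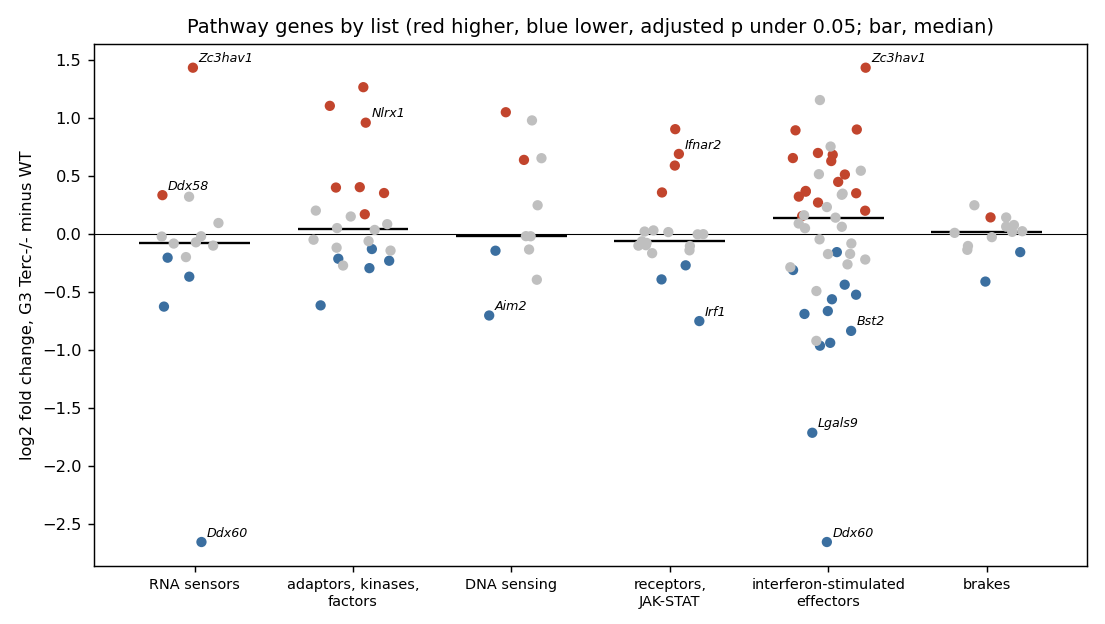
Log2 fold change (G3 Terc-/- minus WT) of the tested genes of 6 lists, red where higher and blue where lower at an adjusted p under 0.05, grey otherwise, with the median of each list as a bar. The medians lie between -0.08 and 0.14, and each list holds genes that rose and genes that fell.

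The remaining lists concern DNA sensing and brakes on the sensing of self nucleic acids. Of 11 DNA sensing genes, all tested, 2 rose and 2 fell (18.2% each, against 21.7% and 21.8% of all genes). Aim2, a sensor of cytosolic DNA, fell by 0.70 (1424 and 1493 counts in WT, 895 and 750 in G3 Terc-/- libraries, edgeR adjusted p = 1.77e-11), and Aim2 overlaps Cadm3 on the opposite strand. Cgas, the enzyme that makes the messenger cGAMP on cytosolic DNA, rose by 0.64 on 41 to 69 counts (edgeR adjusted p = 0.0310), a call lost with any library left out (0.0529 to 0.180). Sting1, the receptor of cGAMP, had a log2 fold change of -0.39 on 23 to 51 counts (edgeR adjusted p = 0.276). Banf1 fell by 0.14 (edgeR adjusted p = 0.0277), a call lost without WT replicate 1 (0.478). Of 15 nucleases, editing enzymes and other brakes, 14 were tested, of which 1 rose and 2 fell (7.14% and 14.3%, against 21.7% and 21.8% of all genes). Adarb1, an RNA editing enzyme, fell by 0.41 (edgeR adjusted p = 0.00125). Adar, which edits double-stranded RNA and keeps MDA5 from responding to it, had 0.06 (1353 and 1416 counts in WT, 1476 and 1184 in G3 Terc-/- libraries, edgeR adjusted p = 0.454). Samhd1 fell by 0.16 (edgeR adjusted p = 0.0410), a call lost without WT replicate 1 (0.217), WT replicate 2 (0.171) or G3 Terc-/- replicate 1 (0.153). Pnpt1 rose by 0.14 (edgeR adjusted p = 0.0425), a call lost without WT replicate 1 (0.313), WT replicate 2 (0.116) or G3 Terc-/- replicate 2 (0.182).

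Over the 7 lists together, 158 genes were counted and 123 tested, of which 31 rose and 26 fell (25.2% and 21.1%, against 21.7% and 21.8% of all genes), with a median log2 fold change of 0.02. Without WT replicate 2, 19 were higher, and without WT replicate 1, 17 were lower. DESeq2 called 14 higher and 17 lower. Its calls over all genes were fewer too, at 1919 higher and 2255 lower, against 3238 and 3241 by edgeR. Among the tested pathway genes with a RefSeq promoter, 28 held the ISRE core, of which 7 rose and 6 fell, and their median log2 fold change was -0.06. Of the 77 without it, 18 rose and 18 fell, with a median of 0.00983.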

How the data were processed

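RNA-seq of 4 libraries, 2 WT and 2 G3 Terc-/-, was analysed. According to the labels and the study's methods, the authors trimmed paired-end reads with Trim Galore, aligned them to mm10 with STAR and counted them with featureCounts. They deposited raw counts per gene, which were used without change. The deposited counts of transposable element copies were not used here. Strand and multi-mapping settings are not given in the sources used here. A symbol of RefSeq GRCm38.p6 was found for 24061 of 24116 gene identifiers, and exon lengths came from GENCODE M21 (21170 genes).

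Genes were filtered with filterByExpr (minimum count 10) and tested with edgeR 4.0.16 in R 4.3.3 (TMM, quasi-likelihood F test, a model with genotype alone), with Benjamini-Hochberg adjustment over all 14896 genes tested. A gene was called at an adjusted p-value under 0.05. Standard errors are the size of the log2 fold change divided by the square root of F. In simulated counts of these 14896 genes and this comparison, 92% of 100 genes changed 2-fold and 81% of 100 changed 1.5-fold were called. Only 200 genes above 1 CPM were changed there, whereas 43.5% of genes were called in the data. These rates therefore do not cover smaller changes, such as those of Ddx58, Mavs and Irf9, or genes as low as Ifih1 and Isg15. The members and lists were chosen with earlier results of these data known. Besides all members, up to 5 genes per list with the largest change (adjusted p under 0.05, mean of at least 50 counts) and 11 fixed genes were to be named, of which 1 is not reported here. Figures were drawn with matplotlib 3.10.9.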

Additional observations from a re-analysis of the deposited data

How the results depend on the processing

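Alternatives were DESeq2 1.42.0, its size factors in edgeR, other count filters, scaling without chromosome 6, the replicate number as a block, the study's cutoffs and each library left out (the lone library is then assumed to vary like the others). A fold change over 1.5 beside the adjusted p was chosen after seeing the data. Of 368 values of 37 named genes, 338 kept direction and side of the threshold. With DESeq2, Irf9 was at 0.349 and not called. Without one library Irf9 lay between 0.269 and 0.452 and Isg15 between -0.973 and 0.226 (positive without WT replicate 1), and Dhx58 between -0.322 and 0.174 (positive without G3 Terc-/- replicate 1). The cause was not tested.

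Counts are given as higher and lower. The study's cutoffs left 0 and 0 members, and 5 and 2 genes over all lists (sensors 1 and 1, adaptors 2 and 0, DNA sensing 1 and 0, JAK-STAT 0 and 0, effectors 2 and 2, brakes 0 and 0), of 704 and 466 in all. The adaptors higher here and at the next cutoff include Nlrc5, which the filter kept through its G3 Terc-/- counts. The sensors and the effectors lower at both cutoffs include Ddx60, which the filter kept only through its WT counts. The calls of Nlrc5 and Ddx60 add no support to these numbers. The fold change over 1.5 left 0 and 1 members, and 15 and 11 genes over all lists, of 1340 and 1085 in all. By list these were sensors 1 and 2, adaptors 3 and 1, DNA sensing 2 and 1, JAK-STAT 3 and 1, effectors 7 and 7, and brakes 0 and 0. DESeq2 called 14 and 17 over all lists, and 1919 and 2255 of all genes. By list these were sensors 2 and 2, adaptors 4 and 3, DNA sensing 0 and 1, JAK-STAT 2 and 3, effectors 7 and 7, and brakes 0 and 1. Without a filter 0 brakes were higher. With a mean of at least 50 counts, 1 DNA sensing gene was higher and 1 brake lower. With one library left out, all lists gave 19 to 28 higher and 17 to 25 lower. The ranges by list were 2 to 4 sensors lower, 2 to 5 adaptors lower, 0 to 2 DNA sensing genes higher and 1 to 3 lower, 2 to 4 JAK-STAT genes higher, 10 to 16 effectors higher and 7 to 12 lower, and 0 to 2 brakes higher and 1 to 2 lower.

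In a paired analysis with the replicate block, 3 and 1 members and 31 and 28 genes over all lists were called. The labels link the replicates of the genotypes only by number. Their deviations had a correlation of 0.110 over the 14896 genes tested. Of the 15 feeder markers, however, 14 were higher in replicate 1 of both genotypes. The block moved no count of calls by over 1.5 times. Scaling moved the median of all genes by less than 0.1. The few counts of Ifih1 and Isg15 limit the precision of their values.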

Other observations

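Some neighbouring genes of the effector list moved together, a grouping made after their values were seen. Parp9, Dtx3l and Parp14, which encode ADP-ribosyltransferases and their ubiquitin ligase partner, lie side by side on chromosome 16 and all fell in G3 Terc-/- ESCs. Parp9 had 446 and 500 counts in WT and 300 and 248 counts in G3 Terc-/- libraries (log2 fold change -0.66, edgeR adjusted p = 6.42e-07). Dtx3l had 420 and 403 against 265 and 259 counts (-0.52, edgeR adjusted p = 9.54e-05), and Parp14 had 217 and 218 against 157 and 114 counts (-0.56, edgeR adjusted p = 0.00117). Each of these 3 calls held with any 1 of the 4 libraries left out and under both other scalings. Parp9 and Dtx3l overlap in the annotation, so that they may share reads. Ifitm1, Ifitm2 and Ifitm3, membrane proteins that restrict virus entry and lie together on chromosome 7, rose by 0.45, 0.35 and 0.20 (edgeR adjusted p = 3.76e-07, 7.54e-07 and 0.0103). The call of Ifitm3 held in 2 of the 4 fits with a library left out and was lost with DESeq2 (adjusted p = 0.0892), and these paralogs may share reads.

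Genes of antigen presentation on MHC class I did not move as one. Tap1 rose by 0.51 (190 and 170 counts in WT, 270 and 203 in G3 Terc-/- libraries, edgeR adjusted p = 0.00139), Tap2 by 0.65 (edgeR adjusted p = 0.00309) and B2m by 0.32 (edgeR adjusted p = 0.00379), whereas Tapbp fell by 0.31 (edgeR adjusted p = 0.00210). The calls of B2m and Tapbp each held in 3 of these 4 fits and those of Tap1 and Tap2 in all 4, and with DESeq2 those of Tap2 (adjusted p = 0.0726) and B2m (adjusted p = 0.0780) were lost. Nlrc5, the activator of MHC class I genes, had 13 and 10 counts in WT and 25 and 26 counts in G3 Terc-/- libraries (log2 fold change 1.27, edgeR adjusted p = 0.0106), a call that held in 2 of the 4 fits with a library left out and was lost with DESeq2 (adjusted p = 0.149). The WT counts of Nlrc5 were at or near the filter minimum of 10, and it was kept through its G3 Terc-/- counts. A gene kept in this way is favoured to differ, so the call of Nlrc5 is no support for a rise. Psmb8, Psmb9 and Psmb10 did not pass the test, at 0.05, -0.17 and -0.22 (edgeR adjusted p = 0.927, 0.595 and 0.0939).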
